A study of Mus musculus with 12 samples.

Results

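The BCL2 family sets the point at which a cell dies through its mitochondria, and 10 of its genes were followed here in dendritic cells (DCs) sorted from mouse spleen: the survival genes Bcl2, Bcl2l1 and Mcl1, the pore formers Bax and Bak1, and the death-promoting genes Bcl2l11, Bid, Bad, Bbc3 and Pmaip1. Members were all probe sets of the deposited expression table whose annotation carried only 1 of these symbols. This gave 29 probe sets of 9 genes, out of 45037 probe sets that carry 18193 gene symbols between them. Bcl2l1 had 4 probe sets, Bcl2 5, Mcl1 6, Bcl2l11 5, Bid 3, Bad 2, Bak1 2, and Bbc3 and Pmaip1 1 each. No probe set of the annotation used here carried Bax, so Bax was not analysed here. A filter on low values kept 26 of the 29. The probe sets that did not pass it were 1426050_at and 1426191_a_at of Bcl2l1 and 1425716_s_at of Bak1.

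The DCs came from alymphoplasia (aly) mice and from heterozygous littermates, which the labels call wild type (WT). The aly allele is a mutation of Map3k14, which encodes the kinase NIK of the non-canonical NF-kappaB pathway. A probe set does not read a point mutation, so no transcript level here checks the genotype labels. The WT group carries 1 aly allele, and the mutation is present in all cells of an aly mouse. WT and aly mice were either left untreated or injected intraperitoneally with 25 micrograms of lipopolysaccharide (LPS), a bacterial ligand of Toll-like receptor 4, and 100 micrograms of an agonistic anti-CD40 antibody. DCs were taken 6 hours after injection, selected on CD11c beads and sorted by flow cytometry. The 4 groups (WT untreated, WT treated, aly untreated, aly treated) had 3 arrays each, with the DCs of 3 mice pooled for each array. Ages of the mice are not given in the labels. The p-values thus rest on the scatter among arrays, each a pool of mice, and in such bulk RNA fewer cells of a type and less RNA per cell cannot be told apart.

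Anti-apoptotic members such as Bcl2, Bcl-xL (the long product of Bcl2l1) and Mcl1 hold Bax and Bak1 in check at the outer mitochondrial membrane. Members with only the BH3 domain, such as Bim (the product of Bcl2l11), Puma (Bbc3), Noxa (Pmaip1), Bad and Bid, release that check or activate Bax and Bak1 directly. Bcl-xL is a known target of NF-kappaB, and loss of Bim is known to lengthen the life of DCs in mice. Mature DCs are short-lived, and CD40 ligation is known to prolong their survival.

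The promoters of the genes that carried the called changes, Bcl2l1 and Bcl2l11, are shown because motifs of NF-kappaB and of forkhead factors are part of their textbook regulation. The sequences are RefSeq's for build GRCm38.p6, from 250 bases before to 50 bases after a transcription start, written 5′ to 3′ on the gene's strand. Capitals mark a match to the kappaB consensus in the Bcl2l1 window (chr2:152830668-152830967, minus strand, the second of 3 annotated starts) and a match to the forkhead motif, read on the opposite strand, in the Bcl2l11 window (chr2:128125788-128126087, plus strand, the first of 2 starts).
Bcl2l1: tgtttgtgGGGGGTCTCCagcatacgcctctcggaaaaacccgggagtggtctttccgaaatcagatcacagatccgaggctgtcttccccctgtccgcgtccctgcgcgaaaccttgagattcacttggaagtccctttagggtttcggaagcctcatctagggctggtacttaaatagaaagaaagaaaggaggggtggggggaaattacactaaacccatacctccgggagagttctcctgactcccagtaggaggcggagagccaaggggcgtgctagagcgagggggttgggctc
Bcl2l11: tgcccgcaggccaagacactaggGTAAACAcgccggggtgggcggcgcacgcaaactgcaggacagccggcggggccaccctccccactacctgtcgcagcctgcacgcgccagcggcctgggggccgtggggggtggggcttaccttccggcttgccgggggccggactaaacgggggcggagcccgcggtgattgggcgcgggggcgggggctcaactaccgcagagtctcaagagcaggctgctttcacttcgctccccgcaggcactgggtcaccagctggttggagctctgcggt
The kappaB match in Bcl2l1, GGGGGTCTCC, ran from -242 to -233 relative to the start, and the forkhead match in Bcl2l11 from -227 to -221. Both strands were searched. The motifs were the kappaB consensus, the forkhead motif TGTTTAC, and the STAT motif TTCNNNGAA. These motifs do not overlap in the windows shown. The windows searched were 15 of the listed genes, Bax among them and Pmaip1 not. This search left out a chromosome that the 32851 promoters include, so for Pmaip1 these motifs were not examined. The kappaB consensus matched in 2 of the 15, the other being a window of Bbc3, and in 8.46% of 32851 promoters of the same length. The forkhead motif matched in 2 of the 15, the other again of Bbc3, and in 3.65% of all. The STAT motif matched in 0 of the 15 and in 8.3% of all. A match is a description of letters and not a site of binding.

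The values are array intensities on a linear scale, scaled by array, and differences are log2 differences of intensity plus 16, with their standard error (SE) from the limma fit over all 12 arrays. Calls were made at 0.05 after Benjamini-Hochberg adjustment over all 34205 probe sets past the filter. All adjusted p-values below are limma's. The added 16 understates the change of dim probe sets, and levels of different probe sets cannot be set against each other. Array medians ran from 21.5 to 53.4. Treated aly replicate 1 stood apart: its Actb control had a 3′ to 5′ ratio of 55.82, against 1.386 to 5.921 on the other arrays, and it correlated with the rest at rank correlations of 0.576 to 0.666, where the rest had medians of 0.787 to 0.85. The 3′ to 5′ ratios also differed with genotype. That of Gapdh was 4.577 to 5.594 in WT untreated against 7.096 to 14.12 in aly untreated, and 4.842 to 8.732 in WT treated against 8.457 to 45.73 in aly treated. That of Actb was 1.386 to 1.456 in WT treated against 2.391 to 55.82 in aly treated. The part of RNA quality in the differences between genotypes below was not tested. Results that rest on treated aly replicate 1 are given with and without it. None of the 8 pan-DC markers was at or under the 40th percentile on every array of any group. Their summed level ran from 47390 to 54280 in WT untreated, from 34800 to 40410 in WT treated, from 57880 to 62810 in aly untreated and from 43560 to 99740 in aly treated. H2-Aa, H2-Ab1 and Cd74 were the brightest of them on every array. H2-Ab1 and Irf8 were higher on all aly untreated than on all WT untreated arrays. The others overlapped, among them Zbtb46 (823.6, 905.7 and 749.8 in WT untreated, 376.6, 1183 and 216 in aly untreated). Markers of other cell types moved with genotype. The summed level of 10 of 10 red pulp macrophage markers was 1542 to 15580 in WT untreated and 1750 to 13900 in WT treated, against 41480 to 67950 in aly untreated and 29900 to 60590 in aly treated. The 5 of 9 erythroid markers with a probe set summed to 46.1 to 167.5, 30.4 to 322.2, 794.9 to 1523 and 475.5 to 4246 in the same order. Hba-a1 was at or under the 40th percentile on every array of all groups but aly untreated, as were Epb42 in WT untreated and Klf1 in WT treated. None of the macrophage markers was at or under that percentile on every array of any group. The highest macrophage sum of each WT group was that of replicate 1, and the medians were 1619 in WT untreated and 3197 in WT treated. Neutrophil markers (5 of 6) summed to 60.1 to 233.1, 131.7 to 912.6, 244.3 to 2732 and 349.2 to 13360, and natural killer cell markers (4 of 5) to 48.6 to 105.8, 130.2 to 1626, 69.2 to 493 and 141.6 to 453.9, again in the same order. Plasmacytoid DC markers (4 of 4) summed to 706.8 to 915.9, 1770 to 2522, 656.8 to 869.7 and 1057 to 3312, and monocyte markers (2 of 3) to 207.4 to 409.3, 41.9 to 197.4, 208.9 to 476.8 and 137.6 to 223.6, so that the WT treated and untreated sums of both did not overlap. The markers within each list did not move together in WT. Bst2 and Tcf4 of the plasmacytoid DC list were higher on all treated arrays. Ccr9 was lower on all of them (290.4, 110.9 and 384.8 untreated, 10.9, 70.3 and 13.8 treated), and Siglech was low and overlapped. Of the monocyte markers Ccr2 was lower on all WT treated arrays, and Fn1 overlapped. Treated aly replicate 1 gave the highest aly treated sum of each of these lists but the monocyte one, where it gave the lowest. Without it the aly treated sums were 43560 and 44370 (pan-DC), 29900 and 45340 (macrophage), and 475.5 and 3017 (erythroid). They were 349.2 and 676.9 (neutrophil), 141.6 and 305.4 (natural killer cell), 1057 and 1205 (plasmacytoid DC), and 165.6 and 223.6 (monocyte). The part of these cells in the differences with genotype and treatment below was not tested.

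In WT DCs the treatment raised Bcl2l1, the Bcl-xL survival gene, and every probe set of Bcl2l11, the gene of its antagonist Bim. Of the 26 member probe sets past the filter, 6 were called higher and 0 lower, which is 23.1% of them. Over all probe sets 6.54% were called, 3.82% higher and 2.72% lower. The median log2 change was 0.16 over the members and -0.07 over all probe sets. The 6 calls fall on 2 of the 9 genes, and the 5 probe sets of Bcl2l11 read 1 gene, so they are not independent. Without treated aly replicate 1, which lies outside this comparison and enters only through the shared spread, 8 members were called higher and 3 lower (13.4% of all probe sets).

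Bcl2l1 was read by 1420888_at at 99.6, 139.8 and 75.3 on the WT untreated arrays and at 1755.5, 620.1 and 971.2 on the WT treated arrays. It read 321.7, 464.2 and 238 on the aly untreated arrays and 3326.7, 1649.6 and 442.2 on the aly treated arrays. In WT every treated array was above every untreated array, while in aly the lowest treated array lay below the highest untreated one. The change with treatment in WT was 3.13 ± 0.58 (SE, n = 3 per group), an 8.78-fold rise with a 95% interval of 1.92 to 4.35 on the log2 scale (adjusted p = 0.0026). It was called under all 21 alternative settings, between 2.73 and 3.49 (adjusted p up to 0.025). In aly the change was 1.98 ± 0.58, or 3.96-fold, and was not called (adjusted p = 0.23). The aly value rests on single arrays: it was 1.34 without treated replicate 1 (adjusted p = 0.49) and 2.77 without treated replicate 3 (adjusted p = 0.025).

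**Figure D1:**
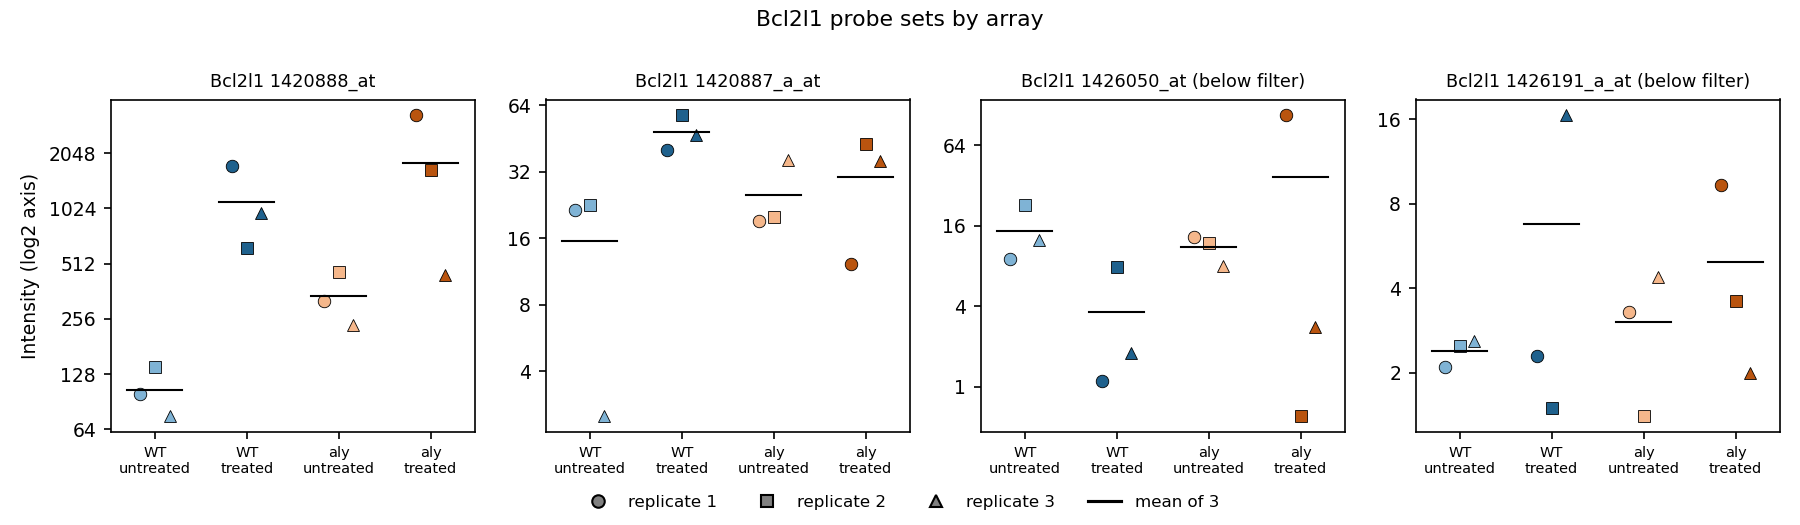
Intensity of the 4 probe sets of Bcl2l1 on each of the 12 arrays (log axis), 1 point per array (its shape gives the replicate) and a bar at the mean of each group of 3 arrays, in the 4 groups. Probe set 1420888_at was higher on all 3 WT treated arrays than on all 3 WT untreated arrays, and 1426050_at and 1426191_a_at did not pass the filter on low values.

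The second probe set of Bcl2l1, 1420887_a_at, read 21.5, 22.7 and 2.5 in WT untreated, 40.1, 58.1 and 46.9 in WT treated, 19.1, 19.9 and 36.2 in aly untreated and 12.3, 42.7 and 35.8 in aly treated. Its WT groups did not overlap and its aly groups did. The change in WT was 1.09 ± 0.41 (2.14-fold, adjusted p = 0.13), not called, and it passed without treated aly replicate 1 (adjusted p = 0.042) and with array weights (adjusted p = 0.026). The change in aly was 0.13 ± 0.41 (adjusted p = 0.92). The remaining probe sets of Bcl2l1 were too dim to be tested. Probe set 1426050_at read 9, 22.7 and 12.4 in WT untreated, 1.1, 7.9 and 1.8 in WT treated, 13.2, 11.9 and 8 in aly untreated, and 108.2, 0.6 and 2.8 in aly treated. Probe set 1426191_a_at read 2.1, 2.5 and 2.6 in WT untreated, 2.3, 1.5 and 16.6 in WT treated, 3.3, 1.4 and 4.4 in aly untreated, and 9.3, 3.6 and 2 in aly treated. The highest array was treated aly replicate 1 for the former, followed by WT untreated replicate 2, and treated WT replicate 3 for the latter. The values of 1420888_at and 1420887_a_at had a Pearson r of 0.41 over the 12 arrays and 0.74 without treated aly replicate 1, a description of arrays that fall into groups.

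Between the genotypes no probe set of Bcl2l1 was called. Before treatment all 3 aly untreated arrays of 1420888_at were above all 3 WT untreated arrays, by 1.55 ± 0.58 or 2.93-fold, a difference that was not called (95% interval 0.33 to 2.77, adjusted p = 0.37). It passed with array weights (1.70, adjusted p = 0.041). Among treated DCs the groups overlapped and the difference was 0.40 ± 0.58 (adjusted p = 0.73), or -0.25 without treated aly replicate 1. The response of aly minus that of WT was -1.15 ± 0.82, with an interval of -2.87 to 0.57 (adjusted p = 0.80). For 1420887_a_at aly minus WT was 0.43 ± 0.41 in untreated DCs (adjusted p = 0.79) and -0.53 ± 0.41 in treated DCs (adjusted p = 0.48), with overlapping groups in both, and the difference of response was -0.97 ± 0.58 (adjusted p = 0.77). These arrays thus do not show that the aly response was smaller, nor that it was the same.

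Bcl2l11, whose product Bim binds and neutralises all the survival members, was read by 5 probe sets, and all 5 were called higher with treatment in WT. Probe set 1435448_at read 385.3, 348.1 and 422.3 in WT untreated, 2124.2, 1799.1 and 2899.1 in WT treated, 566.5, 485.8 and 505.4 in aly untreated, and 427.5, 1146.8 and 1322.8 in aly treated. Probe set 1435449_at read 61, 49.1 and 11 in WT untreated, 214.2, 221 and 249.2 in WT treated, 63.5, 53.5 and 36.6 in aly untreated, and 64, 90.3 and 102.9 in aly treated. On both, all WT treated arrays were above all other arrays. The changes in WT were 2.49 ± 0.42 (5.61-fold, adjusted p = 0.0012) and 2.25 ± 0.41 (4.75-fold, adjusted p = 0.0024), and both were called under every alternative that kept the probe set. In aly they were 0.73 ± 0.42 (adjusted p = 0.50) and 0.60 ± 0.41 (adjusted p = 0.57), not called.

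Probe set 1456006_at of Bcl2l11 was called in both genotypes. It read 31.3, 14.3 and 33.9 in WT untreated, 175.6, 103.2 and 183.3 in WT treated, 14.3, 15.8 and 41.1 in aly untreated, and 170.4, 104.4 and 194.8 in aly treated. Treated arrays were above untreated arrays in each genotype. The rise was 2.00 ± 0.40 in WT (3.99-fold, adjusted p = 0.0053) and 2.14 ± 0.40 in aly (4.41-fold, adjusted p = 0.033), the only member called with treatment in aly. The aly call was lost under 9 of 20 alternatives, among them leaving out any of the 3 aly untreated arrays, WT untreated replicate 1 or 3, WT treated replicate 3 or aly treated replicate 3 (adjusted p up to 0.17). The brightest, 1456005_a_at, read 1018, 486.7 and 660 in WT untreated, 5073.9, 2511.9 and 3592.8 in WT treated, 1821.4, 1479.3 and 1201.6 in aly untreated, and 24129.6, 5146.8 and 2253.4 in aly treated. Treated aly replicate 1 was the highest array by far, and in each genotype the treated and untreated arrays did not overlap. The rise was 2.35 ± 0.62 in WT (5.09-fold, adjusted p = 0.028) and fell short under 7 of 21 alternatives, including the omission of any WT untreated array and of WT treated replicates 1 and 3, with adjusted p of at most 0.13. In aly the change was 2.13 ± 0.62 (adjusted p = 0.22), 1.20 without treated replicate 1 (adjusted p = 0.47) and 2.90 without treated replicate 3 (adjusted p = 0.035).

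The dimmest, 1426334_a_at, read 17, 1.9 and 19.3 in WT untreated, 120.2, 63.9 and 64.5 in WT treated, 16.9, 35.7 and 62.9 in aly untreated, and 61, 55.8 and 75.1 in aly treated. Its WT groups were apart and its aly groups overlapped. It rose by 1.80 ± 0.42 in WT (3.48-fold, adjusted p = 0.014), which no longer passed once WT untreated replicate 2, its lowest array, or WT treated replicate 1 was omitted (adjusted p of at most 0.093), and changed by 0.64 ± 0.42 in aly (adjusted p = 0.55). The probe sets of Bcl2l11 thus gave changes of 0.60 to 2.14 in aly for 1 gene, against 1.80 to 2.49 in WT. The suffix _a marks a probe set that reads several transcripts of a gene, and which transcripts of Bcl2l11 each of the 5 reads was not examined.

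**Figure D2:**
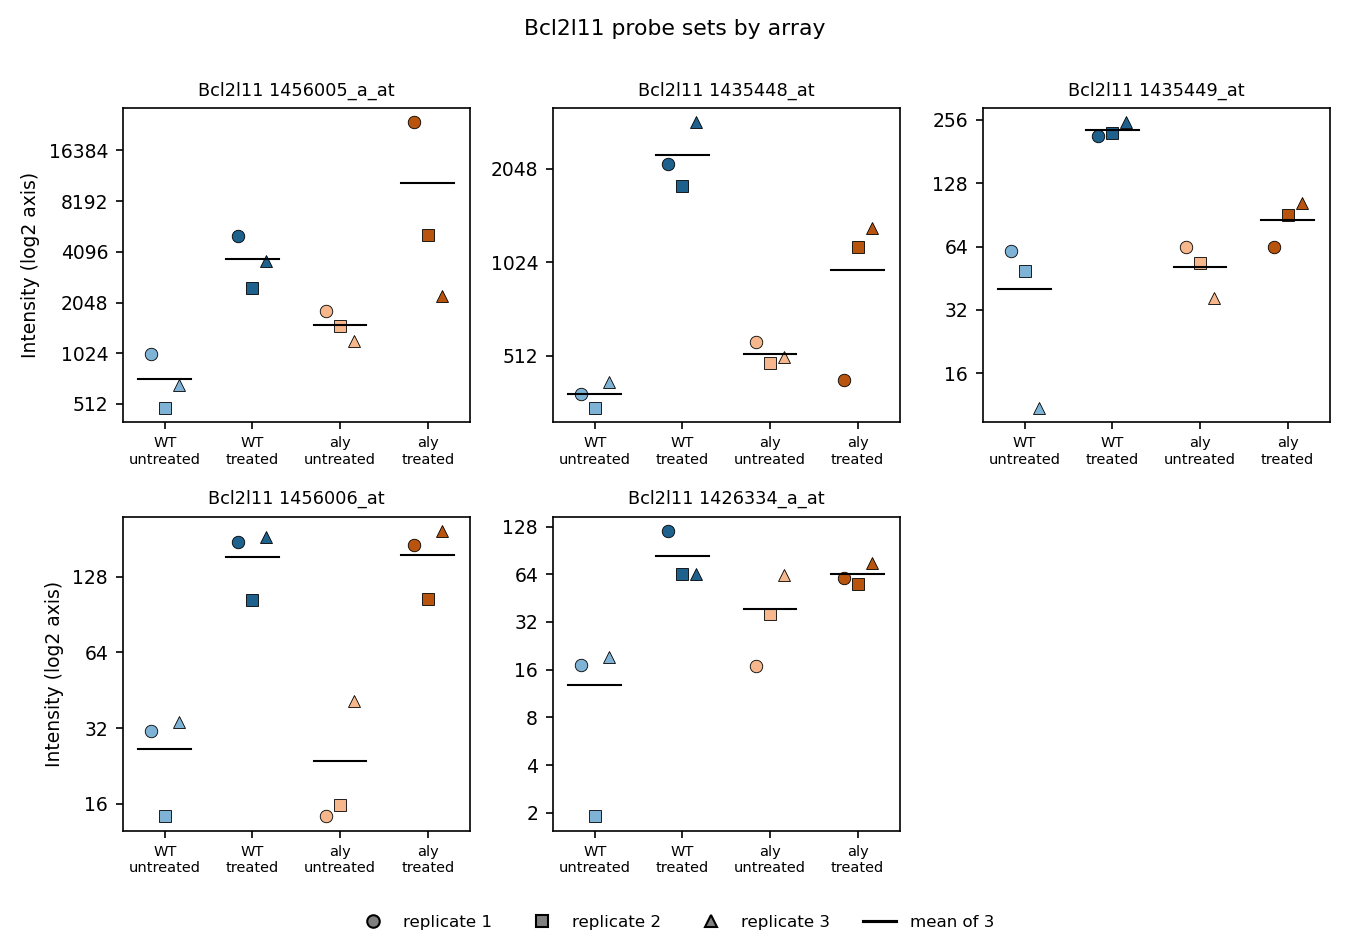
Intensity of the 5 probe sets of Bcl2l11 on each of the 12 arrays (log axis), 1 point per array (its shape gives the replicate) and a bar at the mean of each group of 3 arrays, in the 4 groups. All 3 WT treated arrays were above all 3 WT untreated arrays in each probe set, while in aly 1435448_at and 1426334_a_at overlapped between treated and untreated arrays.

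The test of the difference in response did not pass for any Bcl2l11 probe set. The response of aly minus that of WT was -1.76 ± 0.59 for 1435448_at (interval -3.00 to -0.53, adjusted p = 0.47), -1.65 ± 0.58 for 1435449_at (-2.87 to -0.43, adjusted p = 0.52) and 0.14 ± 0.57 for 1456006_at (-1.05 to 1.34, adjusted p = 0.97). Among treated DCs all aly arrays were below all WT arrays for 1435448_at, by -1.35 ± 0.42 (adjusted p = 0.078), and for 1435449_at, by -1.28 ± 0.41 (adjusted p = 0.088). Leaving out treated aly replicate 1 gave -0.85 (adjusted p = 0.18) and -1.12 (adjusted p = 0.14), and 1435448_at passed without treated aly replicate 3 (-1.65, adjusted p = 0.032). With array weights both passed (adjusted p = 0.049 and 0.039). The other probe sets of Bcl2l11 did not share this difference: among treated DCs aly minus WT was 0.87 ± 0.62 for 1456005_a_at (adjusted p = 0.44), 0.02 ± 0.40 for 1456006_at (adjusted p = 0.98) and -0.27 ± 0.42 for 1426334_a_at (adjusted p = 0.75), with overlapping groups. Their difference of response was -0.21 ± 0.87 for 1456005_a_at (adjusted p = 0.98, and -1.15 without treated aly replicate 1) and -1.16 ± 0.59 for 1426334_a_at (adjusted p = 0.71).

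Bcl2, the founding survival gene, had none of its 5 probe sets called. The brightest, 1457687_at, read 229.8, 152.5 and 200.6 in WT untreated, 79.8, 102.7 and 57.5 in WT treated, 136, 162.2 and 165.8 in aly untreated, and 96.3, 180.9 and 135.9 in aly treated. All WT treated arrays were below all WT untreated arrays, and the aly groups overlapped. The WT change was -1.14 ± 0.36 (2.21-fold lower, adjusted p = 0.072), and it passed without treated aly replicate 1 (adjusted p = 0.022), with the stricter filter (adjusted p = 0.039) and with array weights (adjusted p = 0.0088). The aly change was -0.18 ± 0.36 (adjusted p = 0.87). The other 4 probe sets changed by -0.25 to 0.61 in WT, with overlapping groups. Among treated DCs 1440770_at was 1.05 ± 0.48 higher in aly (adjusted p = 0.22), a difference that passed without treated aly replicate 3 (1.60, adjusted p = 0.039) and was 0.51 without treated aly replicate 1. In untreated DCs 1440770_at was already 1.02 ± 0.48 higher in aly (adjusted p = 0.52), with all aly arrays above all WT arrays. Its difference of response was 0.03 ± 0.67 (adjusted p = 0.9955).

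Mcl1, a survival gene whose protein is made and destroyed within hours, was read by 6 probe sets that differed among themselves. The brightest, 1456243_x_at, read 6643.4, 7813.2 and 7069.7 in WT untreated, 5984.9, 5344.9 and 5275.4 in WT treated, 7950.1, 8021.6 and 9293.6 in aly untreated, and 18855.7, 8182.5 and 8349.9 in aly treated. WT treated arrays were the lowest, and treated aly replicate 1 the highest. The WT change was -0.37 ± 0.38 (adjusted p = 0.70). By contrast 1416881_at read 1068.5, 1120.1 and 870.7 in WT untreated, 2529.8, 1509.8 and 2382.4 in WT treated, 820.2, 920.2 and 887 in aly untreated, and 2374.4, 1288.5 and 1955.1 in aly treated. Treated arrays were above untreated arrays in both genotypes, by 1.03 ± 0.37 in WT (adjusted p = 0.11) and 1.04 ± 0.37 in aly (adjusted p = 0.34). Neither was called, although the WT value passed without treated aly replicate 1 (adjusted p = 0.040) and with array weights (adjusted p = 0.022). The suffix _x marks probes that also fit other sequences. The 3 Mcl1 probe sets with it had a Pearson r of 0.96 to 0.99 with each other over the 12 arrays (0.86 to 0.97 without treated aly replicate 1). These 3 were all lower in WT treated than in WT untreated, by -0.51 to -0.35. Probe set 1456243_x_at had r of 0.05 with 1416881_at over the 12 arrays, and of -0.6 without treated aly replicate 1. Among treated DCs 1456381_x_at was 1.22 ± 0.38 higher in aly (adjusted p = 0.079), or 0.83 without treated aly replicate 1, and it passed without treated aly replicate 3 (1.41, adjusted p = 0.048) and with the stricter filter (adjusted p = 0.050 after rounding). Probe sets without the suffix gave -0.43 ± 0.35 (1448503_at, adjusted p = 0.50, all treated aly arrays below all treated WT arrays), -0.20 ± 0.37 (1416881_at, adjusted p = 0.79) and 0.31 ± 0.38 (1416880_at, adjusted p = 0.67). Without treated aly replicate 1 these were -0.23, -0.39 and 0.59. For 1416880_at the remaining treated aly arrays were then above all treated WT arrays, and 1456243_x_at gave 0.58.

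Bid, which links death receptors to the mitochondrion once caspase 8 has cut it, was read by 1417045_at at 225.6, 367.8 and 387.4 in WT untreated, 107, 159.4 and 89.8 in WT treated, 264.5, 240.4 and 322.3 in aly untreated, and 7.9, 101.8 and 152.7 in aly treated. Treated arrays were below untreated arrays in both genotypes. The change was -1.34 ± 0.55 in WT (2.54-fold lower, adjusted p = 0.18) and -1.89 ± 0.55 in aly (3.71-fold lower, adjusted p = 0.22), neither called. The WT value passed without treated aly replicate 1 (adjusted p = 0.011), with array weights (adjusted p = 0.0092) and, at -1.53, in replicates 2 and 3 alone (adjusted p = 0.050 after rounding). The aly value was -1.04 without treated aly replicate 1 (adjusted p = 0.46). The other Bid probe sets, 1447873_x_at and 1448560_at, were dim and changed by -0.81 and -0.99 in WT, with groups that did not overlap. In WT 1448560_at had no treated array above the 40th percentile. Its WT change passed without treated aly replicate 1 (adjusted p = 0.044) and with array weights (adjusted p = 0.040). In aly these probe sets did not share the fall of 1417045_at. Their aly groups overlapped, with changes of -0.35 ± 0.40 for 1447873_x_at (adjusted p = 0.75) and 0.62 ± 0.50 for 1448560_at (adjusted p = 0.63). Without treated aly replicate 1 these were -0.06 and -0.12.

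**Figure D3:**
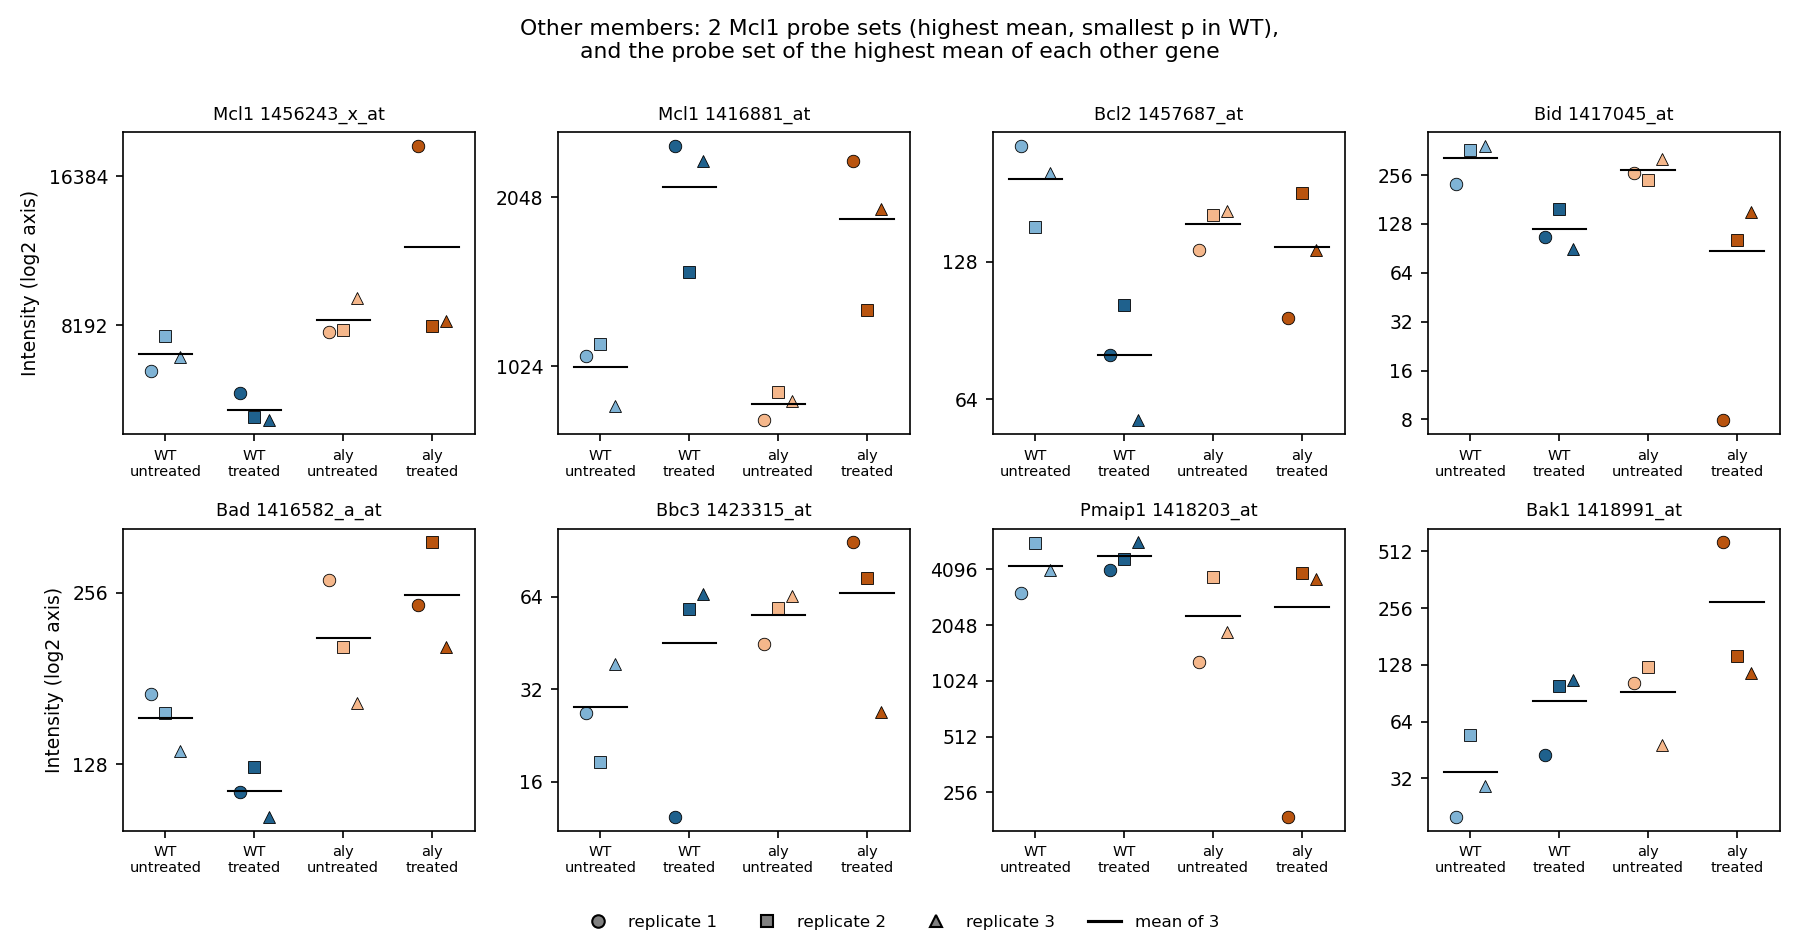
Intensity on each of the 12 arrays (log axis) of the brightest probe set of each other member gene and of 1416881_at of Mcl1, 1 point per array (its shape gives the replicate) and a bar at the mean of each group of 3 arrays, in the 4 groups. Bcl2 and Bid were lower on all 3 WT treated arrays than on all 3 WT untreated arrays, and Pmaip1 was lowest on treated aly replicate 1.

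The remaining death genes were not called in any comparison. Pmaip1, whose product Noxa binds Mcl1, read 3035.9, 5678.6 and 4081.7 in WT untreated, 4052.1, 4685.7 and 5724.2 in WT treated, 1301.2, 3717.3 and 1886.9 in aly untreated, and 188.8, 3891.6 and 3630.2 in aly treated. The treated aly arrays were all below the treated WT arrays, by -1.74 ± 0.79 (adjusted p = 0.22), and by -0.34 without treated aly replicate 1. Bbc3, whose product Puma is a p53 target, read 26.8, 18.5 and 38.8 in WT untreated, 12.3, 58.6 and 65.4 in WT treated, 44.9, 58.7 and 64.3 in aly untreated, and 96.2, 73.8 and 26.9 in aly treated. All aly untreated arrays were above all WT untreated arrays, by 0.72 ± 0.46 (adjusted p = 0.66). Its change with treatment was 0.36 ± 0.46 in WT (adjusted p = 0.78). Bad, which growth factor signals keep phosphorylated and inactive, read 170, 157.2 and 135.3 in WT untreated, 114.3, 126.7 and 103.5 in WT treated, 269.6, 205.6 and 164.2 in aly untreated, and 243.4, 314 and 205.6 in aly treated with 1416582_a_at. Treated aly arrays were above treated WT arrays by 1.03 ± 0.35 (2.04-fold, adjusted p = 0.10), which passed with array weights (1.17, adjusted p = 0.016). The other Bad probe set differed by 0.06 ± 0.57 (adjusted p = 0.96).

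Bak1, a pore former that acts with Bax, was read by 1418991_at at 20, 54 and 29.2 in WT untreated, 42.4, 98.7 and 106.1 in WT treated, 102.7, 124 and 48.2 in aly untreated, and 570.6, 142.2 and 115.7 in aly treated. The aly treated arrays were all above the WT treated arrays, by 1.30 ± 0.53 (adjusted p = 0.17), or 0.63 without treated replicate 1, which was the highest of the 12. Among untreated DCs Bak1 was 1.08 ± 0.53 higher in aly (adjusted p = 0.55), with overlapping groups. The difference of response of Bak1 was 0.22 ± 0.75 (adjusted p = 0.97). With treatment it changed by 0.95 ± 0.53 in WT (adjusted p = 0.37) and 1.17 ± 0.53 in aly (adjusted p = 0.42), and the groups overlapped in both. The second probe set of Bak1 read 2.5 to 6.2 on all arrays and was not tested.

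**Figure D4:**
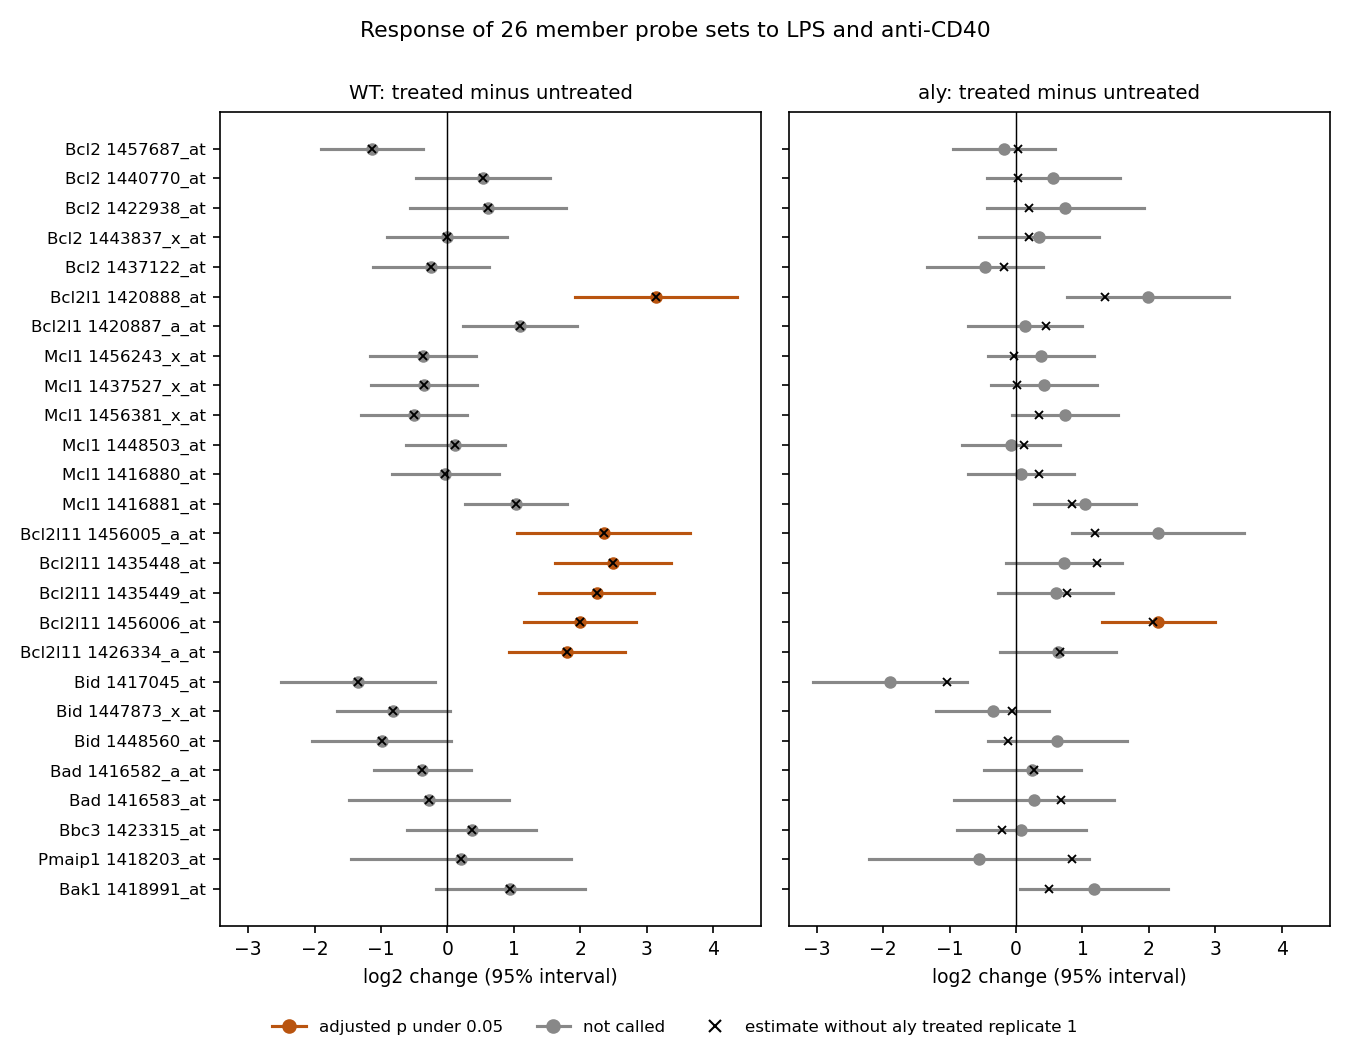
Log2 change with treatment in WT and in aly for each member probe set past the filter, with 95% intervals from the limma fit (n = 3 arrays per group) and crosses for the estimate without treated aly replicate 1. The 6 probe sets called in WT are the lead probe set of Bcl2l1 and the 5 of Bcl2l11, and 1 of them, 1456006_at of Bcl2l11, was called in aly.

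Over the members, treatment in aly thus gave 1 call higher of 26 (3.85%), where 0.275% of all probe sets were called and 0.257% called higher. The median change in aly was 0.40 over the members and 0.01 over all probe sets. Between the genotypes 0 of 26 members were called by limma in untreated DCs (3 at an unadjusted p under 0.05), where 0.371% of all probe sets were called and 9.52% had an unadjusted p under 0.05. In treated DCs 0 were called by limma (9 unadjusted), where 3.79% of all were called and 20.8% had an unadjusted p under 0.05. In the difference of response 0 were called by limma (4 unadjusted), where 0.0497% of all were called and 7.22% had an unadjusted p under 0.05. The treatment comparisons of the 2 genotypes use separate arrays, but each shares its groups with the genotype comparisons. Median centring of the arrays moved the median difference between genotypes over all probe sets from 0.11 to -0.14 in untreated and from 0.21 to -0.14 in treated DCs, so a member's genotype difference is best read against that median. It also moved the share of called probe sets that were higher from 58.5% to 71.7% for treatment in WT and from 46.9% to 15.1% for genotype in treated DCs (37.9% with quantile normalization).

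Genes that act around the members were followed as 4 lists. Of the death receptor route that leads to Bid, 18 probe sets of 8 genes passed the filter, and 5 were called higher and 0 lower with treatment in WT (27.8%, against 6.54% of all probe sets). The median of the list was 0.97, against -0.07 over all probe sets. The 5 calls fall on Cflar, Tnfsf10 and Fas, so they are not independent. The Tnfsf10 call was of a dim probe set, and the brightest of that gene was not called (adjusted p = 0.17). Fas, the death receptor, read 14, 4.1 and 20.1 in WT untreated and 643.6, 657.4 and 1141 in WT treated, and 2.4, 24.3 and 9.3 in aly untreated and 83.3, 71.7 and 92.7 in aly treated. Treated arrays were above untreated arrays in both genotypes, and the treated aly arrays lay far below the treated WT arrays. The log2 difference in WT was 4.84 ± 0.40 (adjusted p = 1.6e-06), and Fas was -3.03 ± 0.40 lower in treated aly than in treated WT DCs (adjusted p = 0.0014). Untreated Fas lay near or under the added 16 and passed the filter through its treated arrays, so the size of its rise depends on that number and no fold is given. Cflar, whose product c-FLIP keeps caspase 8 inactive at the receptor, read 452.2, 395.8 and 328.1 in WT untreated, 2188.4, 1249.5 and 2795.8 in WT treated, 229.9, 238 and 510.6 in aly untreated, and 175.8, 509.1 and 612.6 in aly treated. The WT treated arrays were above all others. Cflar rose by 2.30 ± 0.48 in WT (adjusted p = 0.0066, and 0.055 without WT treated replicate 3), and was lower in treated aly by -2.32 ± 0.48 (adjusted p = 0.014, and 0.12 without WT treated replicate 3). Casp8, the caspase that cuts Bid, was lower in treated aly DCs by -2.31 ± 0.47 (adjusted p = 0.013, and 0.096 without WT treated replicate 3). In treated DCs 4 probe sets of this list were called lower in aly and 0 higher (22.2%, against 3.79% of all), and in untreated DCs 0. The 4 calls fall on Casp8, Cflar and Fas, so they are not independent. With treatment in aly 1 was called higher, another probe set of Cflar, named after its value was seen. It changed by 1.76 ± 0.36 in aly (adjusted p = 0.049, and 0.064 without treated aly replicate 1), where the brightest Cflar probe set changed by 0.31 ± 0.48 (adjusted p = 0.82).

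Of the genes downstream of the mitochondrion, 33 probe sets of 12 genes passed the filter, and 1 (3.03%) was called with treatment in WT, against 6.54% of all probe sets (4 without treated aly replicate 1, where 13.4% of all were called). This was Apaf1, the scaffold of the apoptosome, which read 611.4, 703.4 and 952 in WT untreated, 2646.1, 2333.7 and 3217.2 in WT treated, 369.4, 525.5 and 483.2 in aly untreated, and 546.1, 746.2 and 778.8 in aly treated. All WT treated arrays were above all other arrays. Apaf1 rose by 1.84 ± 0.36 in WT (3.59-fold, adjusted p = 0.0037, called under all 21 alternatives) and was lower in treated aly DCs by -1.96 ± 0.36 (adjusted p = 0.0074, and 0.073 without WT treated replicate 3). Endog, a mitochondrial nuclease, was higher in treated aly DCs by 2.94 ± 0.58 (adjusted p = 0.012). The difference was 2.12 without treated aly replicate 1 (adjusted p = 0.010). The call was lost without WT treated replicate 3 (adjusted p = 0.11). Endog read 27, 40.7 and 35.2 in WT untreated and 21.3, 42.3 and 1 in WT treated. In aly it read 87.5, 101.8 and 49.3 untreated and 782.6, 149.1 and 110.9 treated. At 1, WT treated replicate 3 lay under the number added before the log2, so the size of the treated difference depends on that number. All aly untreated arrays were also above all WT untreated arrays, by 0.89 ± 0.58 (adjusted p = 0.67), not called. In treated DCs 1 probe set of this list was called higher in aly and 3 lower, 12.1% against 3.79% of all (1 higher and 2 lower without treated aly replicate 1). In untreated DCs and for treatment in aly 0 were called by limma.

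Of 16 further BCL2 family genes, 9 had a probe set past the filter, 18 in all. Bcl2l14 was the only gene of them called with treatment, by 2 probe sets in WT (11.1% of the list, against 6.54% of all) and 1 in aly (5.56%, against 0.275%). Without treated aly replicate 1 Bnip3 was also called lower in WT, by -1.19 (adjusted p = 0.025, and 0.12 with all arrays, named after its value was seen). Bcl2l14 read 292.1, 151.5 and 385.7 in WT untreated, 2217.7, 894.2 and 1495.5 in WT treated, 240.3, 266.1 and 281.2 in aly untreated, and 1495.6, 884 and 1288.5 in aly treated. Treated arrays were above untreated arrays in both genotypes. It rose by 2.40 ± 0.42 in WT (5.29-fold, adjusted p = 0.0019, called under all 21 alternatives) and by 2.12 ± 0.42 in aly (4.36-fold, adjusted p = 0.043), a call lost under 13 of 21 alternatives, 9 of them the omission of 1 array, among these treated aly replicate 1 (adjusted p = 0.072). The median over this list was -0.20 in WT. Between the genotypes 1 probe set, of Bik, was called higher in treated aly DCs (5.56% of the list, against 3.79% of all, named after its value was seen). In untreated DCs 0 were called by limma. On the WT treated arrays the Bik probe sets read 1 to 12.5, under the added 16, so the size of the difference depends on that number. Treated aly replicate 1 was the highest array of each Bik probe set, and without it 1 probe set of the list was also called higher.

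Of the regulators of the members, 60 probe sets of 21 genes passed the filter, and 9 were called higher and 1 lower with treatment in WT (16.7%, against 6.54% of all probe sets, and 12 and 3 without treated aly replicate 1). With all arrays the calls fall on Dynll2, Rela, Rel, Stat5a, Stat5b, Stat3 and Foxo3, some with several probe sets, so they are not independent. The list had a median of 0.55. Stat5a, a factor that carries cytokine signals to survival genes, read 128.1, 123.3 and 128.9 in WT untreated, 977.8, 887.5 and 3226.1 in WT treated, 129.7, 152.2 and 181.2 in aly untreated, and 371.8, 248.8 and 370.8 in aly treated. Treated arrays were above untreated arrays in both genotypes, and highest in WT. Stat5a rose 10-fold in WT (3.32 ± 0.44, adjusted p = 0.00013) and was lower in treated aly DCs by -2.07 ± 0.44 (adjusted p = 0.017, lost without WT treated replicate 3 or aly treated replicate 2, adjusted p up to 0.13). Stat3, which acts likewise, rose by 2.63 ± 0.38 in WT (adjusted p = 0.00033). Rel, the c-Rel subunit of NF-kappaB, read 268.1, 268.5 and 232.8 in WT untreated, 1002.4, 806.9 and 1247.6 in WT treated, 162.6, 167.6 and 150.7 in aly untreated, and 255.4, 174.8 and 340.4 in aly treated. The WT treated arrays were above all others. It rose by 1.91 ± 0.36 in WT (3.75-fold, adjusted p = 0.003) and was lower in treated aly DCs by -1.95 ± 0.36 (adjusted p = 0.0083, and 0.080 without WT treated replicate 3).

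Foxo3, a forkhead factor known to activate Bcl2l11 and Bbc3, went the other way. It read 534.7, 357.5 and 486.6 in WT untreated, 117, 133.9 and 109.5 in WT treated, 355.1, 668 and 349.4 in aly untreated, and 279.3, 770.8 and 319.5 in aly treated. The WT treated arrays were the lowest, and the aly groups overlapped. Foxo3 fell by 1.79 ± 0.42 in WT (adjusted p = 0.015), which did not pass on omission of replicate 1 or 3 of either WT group (adjusted p of at most 0.079), and was higher in treated aly than in treated WT DCs by 1.65 ± 0.42 (adjusted p = 0.036). The latter was lost on leaving out any WT array or aly treated replicate 2 (adjusted p up to 0.18). Huwe1, a ubiquitin ligase that marks Mcl1 for destruction, was lower in treated aly DCs by -2.13 ± 0.52 (adjusted p = 0.031), lost without WT treated replicate 2 or 3 or aly treated replicate 1 or 2 (adjusted p up to 0.19) and -1.45 without aly treated replicate 1. In treated DCs 5 probe sets of the regulators were called lower in aly and 1 higher, 10% against 3.79% of all (3 lower and 1 higher without treated aly replicate 1), and 0 were called by limma in untreated DCs or with treatment in aly. The differences between treated genotypes in all 4 lists were made where the macrophage and erythroid sums given above also differed, and their part in them was not tested. In the difference of response 0 probe sets of the 4 lists were called by limma, and Fas, at -2.96 ± 0.57 (adjusted p = 0.065), passed without treated aly replicate 1 (adjusted p = 0.021). The median difference between treated genotypes was -0.10 over the death receptor route, -0.22 downstream of the mitochondrion, 0.19 over the further family genes and -0.30 over the regulators, against 0.21 over all probe sets. With an offset of 1 the differences between treated genotypes named here for Fas, Casp8, Cflar, Apaf1, Endog, Rel, Stat5a, Huwe1 and Foxo3 all fell short of the threshold, as did the fall of Foxo3 in WT. Median centring ended both calls of Foxo3, and replicates 2 and 3 alone those of Casp8, Cflar and Huwe1 between the treated genotypes and that of Foxo3 in WT.

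The genes whose brightest probe sets followed 1420888_at of Bcl2l1 most closely over the 12 arrays, among 15018 genes, were Keap1 (Pearson r = 0.971), Kansl1l (0.97), Trafd1 (0.957), Cmip (0.954) and Grina (0.954). Leaving out treated aly replicate 1 gave 0.96, 0.964, 0.947, 0.938 and 0.935. They are correlations of log2 values over arrays that fall into 4 groups, and a gene that differed between the groups as Bcl2l1 did would show them.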

How the data were processed

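Arrays were Affymetrix mouse arrays, 3 per group. RNA was prepared with RNeasy and amplified by in vitro transcription with a second round, per the labels' protocols, a step that can favour 3′ ends. The authors deposited a linear intensity for each of 45101 probe sets on 12 arrays. Their 2% trimmed mean was the same on every array, so the authors' values were scaled per array. The sources used here do not give the software or how background was treated. Probe sets were named by the platform annotation (34958 with 1 symbol, 932 with several, 9211 with none). Control probe sets (64) were left out. Values were used as deposited, plus 16, as log2. Probe sets above their array's 40th percentile on at least 3 arrays were fitted with limma 3.58.1 (R 4.3.3), with 1 mean per group and all 12 arrays (8 residual and 9.51 prior degrees of freedom). Members, lists and settings were chosen with earlier results of these data known. Values per array are given for all Bcl2l1 probe sets, each other member's brightest probe set and called members. Of each list, up to 4 called genes with the smallest p per comparison are named by their brightest probe set. The alternatives for list genes were chosen after seeing the data. The number of arrays limits the precision.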

Additional observations from a re-analysis of the deposited data

How the results depend on the processing

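The 21 alternatives were the omission of each of the 12 arrays, the replicate number as a block, an offset of 1, median centring, quantile normalization, no filter, a stricter filter, 1 probe set per gene, array weights, and replicates 2 and 3 alone. None reversed a called value of a member or of a named list gene. Of the member probe sets other than 1420888_at, 2482 results kept their side of the threshold, 20 passed it newly and 18 fell short of it.

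Omitting 1 array moved the members called from 6 to between 4 and 11 for treatment in WT, from 1 to between 0 and 2 in aly, and from 0 to up to 3 for genotype in treated DCs. Over all probe sets the counts ran from 920 to 4588 for treatment in WT (2237 as reported), from 16 to 127 in aly (94), from 0 to 673 for genotype in untreated DCs (127), from 88 to 2773 in treated DCs (1297) and from 1 to 157 for the difference of response (17). The change of 1420888_at of Bcl2l1 in aly ran from 1.34 to 2.77.

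With array weights 11 members were called for treatment in WT, 1 for genotype in untreated DCs (Bcl2l1, at 1.70) and 3 in treated DCs. All probe sets then gave 5678, 175, 867, 4165 and 372 calls for treatment in WT, in aly, genotype untreated, genotype treated and difference of response. An offset of 1 gave 1122, 6, 0, 147 and 0, and 0 members in aly. With 1 probe set per gene 2 members were called in WT and 0 in aly, where fewer probe sets were tested, and all probe sets gave 1437, 78 and 804 calls for treatment in WT, genotype untreated and genotype treated. Replicates 2 and 3 alone gave 0 members in aly, and 44, 375 and 11 calls over all probe sets in aly, genotype untreated and difference of response. No filter gave 50, 54 and 10 in the same order. Median centring gave 0 for genotype untreated and 9 for the difference. The stricter filter gave 1 member for genotype in treated DCs and 30 calls for the difference. The cause of these moves was not tested, apart from fewer samples or probe sets where named.

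The labels number the replicates alike in each group. Arrays of the same number had deviations from their group means that correlated with r of -0.022 to 0.297 (7 of 18 pairs over 0.1, median 0.079), against -0.253 to 0.193 for arrays of other numbers (1 of 36 over 0.1, median -0.058). Arrays of the same number were thus more alike on the median. The labels name no pairing and not every pair was over 0.1, so the main fit held no block. With that number as a block, 6 members were called for treatment in WT and 1 in aly as without it, Bcl2l1 in WT stayed at 3.13, and all probe sets gave 234 calls for genotype in untreated DCs and 27 for the difference of response. The block also gave 2591 calls for treatment in WT, 127 in aly and 1935 for genotype in treated DCs (2237, 94 and 1297 without it).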
